A study of Mus musculus with 4 samples.

Results

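Lipolysis, the release of fatty acids from stored triglyceride, was followed through 7 genes that encode its enzymes and their direct regulators: Pnpla2, Abhd5, G0s2, Pnpla3, Lipe, Pde3b and Mgll. They were taken by symbol from the 32285 genes of the deposited count tables, with no threshold on a measured value, and all 7 were found. The data were single-nucleus RNA libraries of fat from mice (Mus musculus) kept on a high-fat diet, made in a study of fat tissue after bariatric surgery; the labels name nuclear RNA while the protocol speaks of digested tissue and cells. There were 4 groups of 1 library each: BAT surgery (brown adipose tissue, surgery group), BAT sham (brown adipose tissue, sham group), BeAT surgery (beige adipose tissue, surgery group) and BeAT sham (beige adipose tissue, sham group). All 4 groups shared the high-fat diet. The labels state no strain, age, sex, kind of operation, time after it or number of animals behind a library. With 1 library in each group no difference could be set against the spread between animals, no test was run, and every interval below (95%) covers counting error only.

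In an adipocyte, triglyceride on the lipid droplet is cut in steps. Pnpla2 encodes adipose triglyceride lipase, which takes off the first fatty acid; Abhd5 encodes its coactivator and G0s2 its inhibitor protein. Lipe encodes hormone-sensitive lipase, which acts mainly on diglyceride after phosphorylation by the cAMP-dependent kinase, and Mgll encodes the monoglyceride lipase of the last step. Pde3b encodes a phosphodiesterase that degrades cAMP and carries the antilipolytic action of insulin. Pnpla3 encodes a relative of the first lipase that sits on lipid droplets, is known to bind the same coactivator, and is known to be raised by feeding in mouse liver and fat.

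The stretches upstream of the start site are shown for the 3 members that differed at least 2-fold between surgery and sham nuclei, and shorter windows for the 2 others that held the clock-factor E-box. They are RefSeq sequences on GRCm38.p6, which matched 6 of the 7 members (all but Pde3b), with 8 start sites in all. Capitals mark CACGTG (E-box) or TGACGTCA (cAMP response element), letters that read the same on both strands and do not overlap in these windows.
Pnpla3, chr15:84167566-84167815, plus strand: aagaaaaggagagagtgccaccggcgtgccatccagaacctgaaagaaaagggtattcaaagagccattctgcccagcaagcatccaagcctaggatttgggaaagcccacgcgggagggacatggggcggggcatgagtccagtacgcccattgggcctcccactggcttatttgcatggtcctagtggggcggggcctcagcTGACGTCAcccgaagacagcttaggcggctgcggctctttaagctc
Abhd5, chr9:122351366-122351615, plus strand: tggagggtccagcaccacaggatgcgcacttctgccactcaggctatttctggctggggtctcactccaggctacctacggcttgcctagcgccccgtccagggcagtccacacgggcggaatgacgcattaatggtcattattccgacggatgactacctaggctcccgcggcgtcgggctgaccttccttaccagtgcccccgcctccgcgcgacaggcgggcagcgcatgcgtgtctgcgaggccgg
Pnpla2, chr7:141454938-141455187, plus strand: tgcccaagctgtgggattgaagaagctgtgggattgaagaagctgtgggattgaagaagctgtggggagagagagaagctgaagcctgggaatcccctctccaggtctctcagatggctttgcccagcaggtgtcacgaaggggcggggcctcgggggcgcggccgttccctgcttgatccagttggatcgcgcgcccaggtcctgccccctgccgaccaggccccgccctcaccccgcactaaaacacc
Lipe, chr7:25396110-25396169, minus strand: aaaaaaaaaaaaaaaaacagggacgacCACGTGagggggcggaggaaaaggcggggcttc
Mgll, chr6:88724341-88724400, plus strand: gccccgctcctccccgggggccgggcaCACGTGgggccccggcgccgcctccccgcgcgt
Among the 300 bases around each start site, TGACGTCA was found in Pnpla3, with its first base at position -46 from the start site. CACGTG was found at 1 of the Lipe start sites, at -155, and at 1 of the Mgll start sites, at -44. The windows of Pnpla2, Abhd5 and G0s2 held neither. Over the 32851 mouse promoters of the same length, 7.15% held CACGTG and 1.79% held TGACGTCA. A match is a description of the letters and says nothing of binding.

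The libraries held 5952 to 10445 barcodes and 23118695 to 60409801 UMIs, and 34038 nuclei were kept in 32 clusters. Pairs of libraries shared 36 to 73 barcodes, at most 0.706% of the smaller library. Both surgery libraries stood apart from their sham libraries in the classes of nuclei they held. In BAT surgery 62.0% of nuclei were epithelial-like, against 0.552% of BAT sham nuclei and none in either BeAT library. In BeAT surgery 35.6% were B cell-like and 30.9% T or NK-like, against 0.482% and 2.06% in BeAT sham. The brown and beige labels were not borne out by Ucp1, the uncoupling protein of thermogenic adipocytes. It gave 0 UMIs in adipocyte-like nuclei of BAT surgery, 2 in BAT sham, 0 in BeAT surgery and 3 in BeAT sham, and 3 UMIs would have been 0.826 and 0.664 CPM (UMIs per 1000000 UMIs of the class) in BAT surgery and BeAT surgery. BAT and BeAT are therefore used below as labels of libraries. Adipocyte-like nuclei were named from 8 markers that include no member, after the members had also been left out of the clustering. They numbered 572 in BAT surgery (6.25% of kept nuclei), 4112 in BAT sham (42.0%), 514 in BeAT surgery (9.65%) and 4882 in BeAT sham (50.02%). Gpx5, a gene of epididymal epithelium, stood at 581 CPM in adipocyte-like nuclei and 2084 CPM in T or NK-like nuclei of BAT surgery, and gave 0 UMIs in both classes in the other libraries. Markers of other classes were summed within the adipocyte-like nuclei only, and all sums that follow are for those nuclei. All 7 epithelial markers summed to 21.8 CPM in BAT surgery (6 of 7 with a UMI) and 2.43 in BAT sham (7 of 7). They summed to 0.664 in BeAT surgery (2 of 7) and 0.338 in BeAT sham (2 of 7). The B cell markers summed to 139 and 36.6 CPM in BAT surgery and BAT sham, and to 116 and 28.5 CPM in BeAT surgery and BeAT sham. The T or NK markers summed to 12.1 and 7.13 CPM in BAT surgery and BAT sham, and to 58.2 and 6.18 CPM in BeAT surgery and BeAT sham. Some other lists were lower in adipocyte-like nuclei of the surgery libraries. Endothelial markers summed to 9.91 CPM in BAT surgery against 66.4 in BAT sham, and to 59.3 CPM in BeAT surgery against 68.5 in BeAT sham. Smooth muscle markers summed to 22.0 CPM against 84.8 in the BAT pair and 3.54 CPM against 66.7 in the BeAT pair, and erythroid markers to 76.6 CPM against 118 and 29.0 CPM against 273, each time surgery against sham. The part of these other cells in the results below was not tested. The same counts of members were called when genes of the epithelial-like nuclei were left out of the class total. That step rescales all genes of a library alike and keeps the members' own UMIs, so it does not bear on free RNA of a member.

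In adipocyte-like nuclei the members moved apart from each other. Pnpla3 and Abhd5 were more than 2-fold higher in the surgery library than in the sham library under both tissue labels, Pnpla2 was more than 2-fold lower, and G0s2, Lipe, Pde3b and Mgll stayed within 2-fold. A gene was called where the pair held at least 50 UMIs, the CPM ratio reached 2-fold and its interval excluded 1, which is a rule of size. By this rule 2 of 7 members were called higher in BAT surgery, where 5.39% of the 13100 genes with 50 UMIs were, and 1 of 7 was called lower, where 12.0% of them were. In BeAT surgery the counts were again 2 of 7 higher, against 4.83% of 12575 genes, and 1 of 7 lower, against 15.1%. The 3 called members were the same genes under both labels. The median log2 ratio of the 7 members was -0.21 for BAT surgery over BAT sham and 0.0007 for BeAT surgery over BeAT sham, beside -0.07 and -0.08 for all genes with 50 UMIs over the pair and a UMI in both libraries.

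**Figure D1:**
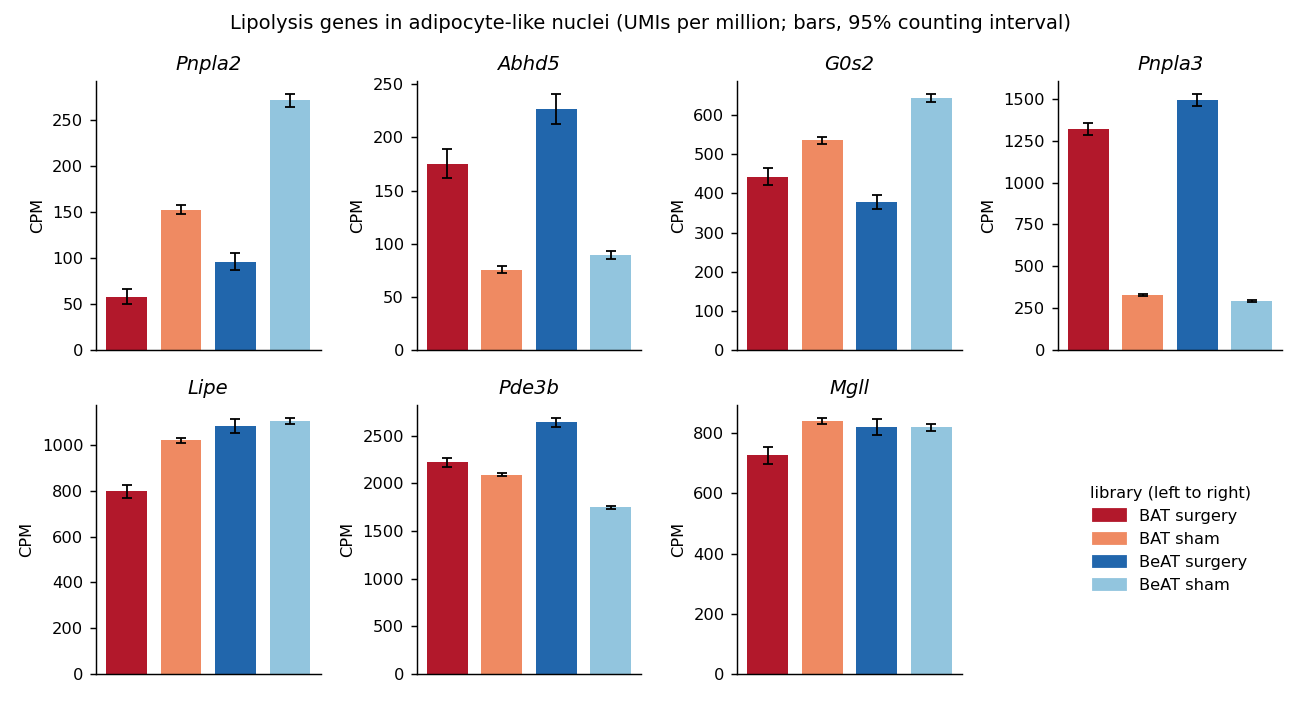
Level of each of the 7 genes in adipocyte-like nuclei, as UMIs per 1000000 UMIs of the class (CPM, y axis from 0), with 1 bar for each of the 4 libraries and the 95% counting interval as a line. Pnpla3 stood at 1319 and 1492 CPM in the surgery libraries against 329 and 293 CPM in the sham libraries, while Mgll lay between 726 and 840.1 CPM in all 4.

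Pnpla2 (ENSMUSG00000025509, mm10 chromosome 7, 141455198 to 141460743, plus strand), the gene of the rate-limiting lipase, gave 211 UMIs in BAT surgery nuclei and 3896 in BAT sham nuclei, or 58.1 CPM (50.5 to 66.5) and 153 CPM (148 to 158). In the other pair it gave 433 UMIs in BeAT surgery and 5613 in BeAT sham, or 95.8 CPM (87.0 to 105) and 271 CPM (264 to 278). Both surgery libraries were below both sham libraries, and the sham libraries differed from each other too. The level was 2.63-fold lower in BAT surgery than in BAT sham (2.29 to 3.03) and 2.83-fold lower in BeAT surgery than in BeAT sham (2.56 to 3.12). Among the genes of each pair, 7.97% and 7.59% had a ratio as low or lower.

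The Pnpla2 ratio stood beside a wider shift of short genes. Over all genes the log2 ratio rose with genomic span, with a Spearman correlation across genes of 0.343 in the BAT pair and 0.574 in the BeAT pair, and genes are not independent replicates. The shortest twentieth of genes, up to 2.79 kb, had a median log2 ratio of -0.75 in the BAT pair, and the longest, from 238 kb, had 0.20. In the BeAT pair the medians were -1.36 up to 2.74 kb and 0.49 from 237 kb. Pnpla2 spans 5.55 kb. With the median of genes of like span taken off, its ratio was 0.538 (0.466 to 0.618) for BAT surgery over BAT sham and 0.617 (0.558 to 0.681) for BeAT surgery over BeAT sham, and it was not called in either pair. Adipoq, the adipokine gene used as an adipocyte marker, also stood lower in the surgery libraries, at 322 CPM in BAT surgery against 577 in BAT sham and at 288 CPM in BeAT surgery against 824 in BeAT sham. The sum of the 8 adipocyte markers was higher, at 37359 CPM in BAT surgery against 23025 in BAT sham. It was 35922 CPM in BeAT surgery against 20633 in BeAT sham. Ghr alone gave 26751 CPM against 11505 of these in the BAT pair and 24263 against 8895 in the BeAT pair. Like Adipoq, Plin1, Cidec and Adrb3 were lower in both surgery libraries. Ghr and Sik2 were higher in both, and Plin4 and Acsl1 changed side between the pairs. The part of span and of free RNA in the Pnpla2 ratio was not tested.

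Abhd5 (ENSMUSG00000032540, chromosome 9, 122351608 to 122381524, plus strand), the coactivator of that lipase, went the other way. It gave 635 UMIs in BAT surgery and 1935 in BAT sham, or 175 CPM (162 to 189) and 75.8 CPM (72.5 to 79.3). It gave 1024 UMIs in BeAT surgery and 1856 in BeAT sham, or 227 CPM (213 to 241) and 89.5 CPM (85.5 to 93.7). Both surgery libraries lay above both sham libraries. The level was 2.31-fold higher in BAT surgery than in BAT sham (2.11 to 2.52) and 2.53-fold higher in BeAT surgery than in BeAT sham (2.34 to 2.73), and taking off the span trend left it at 2.25-fold and 2.53-fold. Of the genes in each pair, 3.95% and 2.57% had a ratio as high or higher.

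G0s2 (ENSMUSG00000009633, chromosome 1, 193272161 to 193273217, minus strand), the inhibitor of the same lipase, is among the shortest genes at 1.06 kb. Its level was 442 CPM in BAT surgery and 535 in BAT sham, and 378 CPM in BeAT surgery and 642 in BeAT sham. Those values put it 1.21-fold lower in BAT surgery than in BAT sham (1.15 to 1.28) and 1.70-fold lower in BeAT surgery than in BeAT sham (1.61 to 1.79), neither of them called. The direction depended on the span trend: with it taken off the ratios were 1.39 (1.32 to 1.46) and 1.51 (1.44 to 1.59). For G0s2 these data therefore give no direction that holds under both scalings.

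Ratios of UMIs between members of 1 library do not depend on the class total, although they are not corrected for gene length, so only their change between libraries is compared. There were 3.01 Abhd5 UMIs per Pnpla2 UMI in BAT surgery (2.57 to 3.53) and 0.497 in BAT sham (0.470 to 0.525), a 6.06-fold difference (5.13 to 7.18). In BeAT surgery there were 2.36 (2.11 to 2.65) and in BeAT sham 0.331 (0.314 to 0.349), 7.15-fold apart (6.31 to 8.11). Both surgery libraries lay above both sham libraries. The size of the difference depended on the nuclei and the scaling. With the span trend taken off it was 4.18-fold (3.54 to 4.96) in the BAT pair and 4.10-fold (3.61 to 4.65) in the BeAT pair. Within cluster 21, described below, it was 4.83-fold in the BeAT pair (4.09 to 5.70), with 1.92 in BeAT surgery and 0.398 in BeAT sham. In the BAT pair it was 1.64-fold there, and 1.28-fold with the cluster made mostly of BAT surgery nuclei left out, with intervals that include 1 (0.487 to 5.50 and 0.420 to 3.63). G0s2 UMIs per Pnpla2 UMI were 7.60 in BAT surgery against 3.50 in BAT sham and 3.95 in BeAT surgery against 2.37 in BeAT sham, 2.17-fold (1.87 to 2.53) and 1.66-fold (1.49 to 1.86) higher; in the BAT pair it was 1.36-fold within cluster 21 (0.575 to 3.71) and 1.01-fold without the cluster mostly of BAT surgery (0.508 to 2.19).

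Pnpla3 (ENSMUSG00000041653, chromosome 15, 84167837 to 84187236, plus strand) had the widest gap of the 7 genes. It gave 4789 UMIs in the 572 BAT surgery nuclei and 8389 in the 4112 BAT sham nuclei, or 1319 CPM (1282 to 1357) and 329 CPM (322 to 336). It gave 6741 UMIs in the 514 BeAT surgery nuclei and 6063 in the 4882 BeAT sham nuclei, or 1492 CPM (1457 to 1528) and 293 CPM (285 to 299.97). The surgery libraries lay close to each other, as did the sham libraries. The level was 4.01-fold higher in BAT surgery than in BAT sham (3.87 to 4.16) and 5.10-fold higher in BeAT surgery than in BeAT sham (4.93 to 5.28), and 4.29-fold and 5.97-fold with the span trend taken off. Of all genes, 212 of 13100 in the BAT pair and 76 of 12575 in the BeAT pair had a ratio as high or higher. Per Pnpla2 UMI there were 22.7 Pnpla3 UMIs in BAT surgery against 2.15 in BAT sham and 15.6 in BeAT surgery against 1.08 in BeAT sham. These are 10.5-fold (9.13 to 12.2) and 14.4-fold (12.99 to 16.02) differences, in a pair of genes chosen after the values were seen. They were 7.98-fold and 9.68-fold with the span trend taken off, and 3.59-fold (1.67 to 9.19) and 11.5-fold (10.1 to 13.1) within cluster 21.

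The share of adipocyte-like nuclei with a Pnpla3 UMI differed as the level did. It was 90.03% in BAT surgery and 55.3% in BAT sham, and 90.1% in BeAT surgery and 44.8% in BeAT sham, at median depths of 6321, 5868.5, 8839 and 4136 UMIs in that order. With each nucleus thinned to 1000 UMIs, which left out 37, 100, 13 and 206 nuclei, the shares were 68.4% (64.3 to 72.3) in BAT surgery against 22.4% (21.1 to 23.8) in BAT sham and 65.3% (60.9 to 69.4) in BeAT surgery against 20.9% (19.7 to 22.0) in BeAT sham. In T or NK-like nuclei thinned in the same way, which should lack the gene and had median depths of 1384 to 2624 UMIs, the share was 0 of 120 nuclei in BAT surgery (up to 3.03%), 0.541% in BAT sham, 0.815% in BeAT surgery and 0 of 164 in BeAT sham (up to 2.22%). Abhd5 at that depth was found in 14.4% of adipocyte-like nuclei in BAT surgery against 7.15% in BAT sham, and in 19.0% in BeAT surgery against 7.83% in BeAT sham. Pnpla2 was found in 6.92% of them in BAT surgery against 13.5% in BAT sham, and in 9.78% in BeAT surgery against 22.6% in BeAT sham. Pnpla2 was less specific: its shares in thinned T or NK-like nuclei were 0 of 120 in BAT surgery, 7.03% in BAT sham, 0.815% in BeAT surgery and 12.8% in BeAT sham, and the part of free RNA in the sham shares of adipocyte-like nuclei was not tested.

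**Figure D2:**
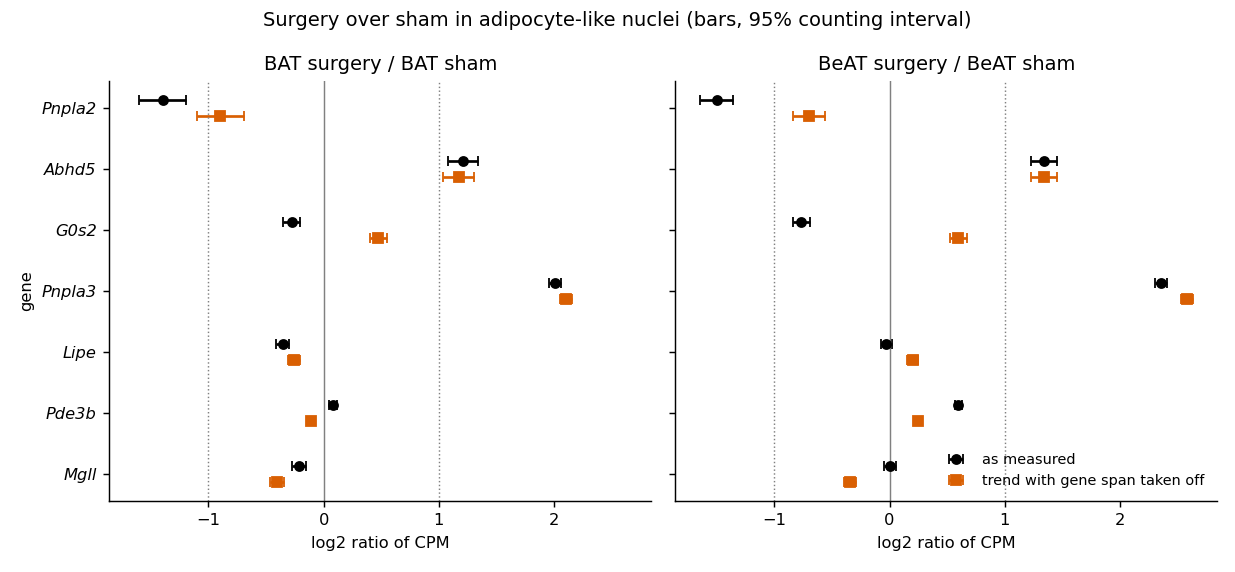
Log2 ratio of CPM of the surgery library over the sham library with the same tissue label in adipocyte-like nuclei (x axis), for each gene (y axis), as measured (circles) and with the median of genes of like span taken off (squares); lines are 95% counting intervals and dotted lines mark 2-fold. Pnpla3 and Abhd5 lie right of the 2-fold line on both scales, Pnpla2 lies left of it only as measured, and G0s2 changes side in both panels.

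Lipe (ENSMUSG00000003123, chromosome 7, 25379527 to 25398710, minus strand), the hormone-sensitive lipase, was measured at 798 CPM in BAT surgery and 1019.5 in BAT sham, and at 1084 CPM in BeAT surgery and 1105 in BeAT sham. BAT surgery was the low library and the other 3 lay close together. The level was 1.28-fold lower in BAT surgery than in BAT sham (1.23 to 1.33), and the BeAT surgery over BeAT sham ratio was 0.981 (0.951 to 1.01). With the span trend taken off the ratios were 0.837 in the BAT pair and 1.15 in the BeAT pair, so the BeAT value changed side while staying near 1.

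Pde3b (ENSMUSG00000030671, chromosome 7, 114415281 to 114539251, plus strand), the phosphodiesterase of the insulin brake, stood at 2219.9 CPM in BAT surgery and 2093 in BAT sham, and at 2643 CPM in BeAT surgery and 1749 in BeAT sham. The ratio was 1.06 (1.04 to 1.09) in the BAT pair and 1.51 (1.48 to 1.54) in the BeAT pair. It is the longest of the 7 genes at 124 kb, and with the span trend taken off the ratios were 0.928 (0.906 to 0.950) and 1.19 (1.16 to 1.21). The BAT value thus lay on either side of 1, within 1.1-fold, and the BeAT value stayed above 1.

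Mgll (ENSMUSG00000033174, chromosome 6, 88724412 to 88828360, plus strand), the monoglyceride lipase, was at 726 CPM in BAT surgery and 840.1 in BAT sham, and at 819 CPM in both BeAT surgery and BeAT sham. It was 1.16-fold lower in BAT surgery than in BAT sham (1.11 to 1.21), and the BeAT surgery over BeAT sham ratio was 1.0005 (0.965 to 1.04). With the span trend taken off the ratios were 0.756 in the BAT pair and 0.787 in the BeAT pair, so its level near sham in BeAT surgery depended on the scaling. Mgll UMIs per Lipe UMI were 0.910 in BAT surgery and 0.824 in BAT sham, and 0.756 in BeAT surgery and 0.741 in BeAT sham, differences of 1.10-fold (1.04 to 1.17) and 1.02-fold (0.972 to 1.07). These differences changed side with the span trend taken off, to 0.903 (0.854 to 0.955) in the BAT pair and 0.685 (0.654 to 0.719) in the BeAT pair. For Pnpla3, G0s2, Lipe, Pde3b and Mgll the intervals of the surgery ratio under the BAT and the BeAT label did not overlap, and for Pnpla2 and Abhd5 they did. The share of all genes whose intervals did not overlap was not computed, and counting intervals are narrow for genes with many UMIs. With 1 library a group this compares 4 libraries and not tissues.

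Between the sham libraries, BAT sham against BeAT sham, 0 of 7 members were called, where 1.87% of 13989 genes were called higher in BAT sham and 1.06% lower. Pnpla2 came nearest, 1.77-fold lower in BAT sham than in BeAT sham (1.70 to 1.85), and kept that direction with the span trend taken off (ratio 0.631, 0.605 to 0.657). The other ratios of BAT sham over BeAT sham ran from 0.832 for G0s2 (0.813 to 0.852) to 1.20 for Pde3b (1.18 to 1.21), and that of G0s2 was 1.03 with the span trend taken off. The sham libraries are also the references of the surgery ratios, so these values are not independent of them. Set against the sham library of the other label, Pnpla3 stayed 4.51-fold higher in BAT surgery and 4.54-fold higher in BeAT surgery. Abhd5 in BAT surgery was then 1.95-fold higher, and Pnpla2 in BeAT surgery had a ratio of 0.628, so neither was called.

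The adipocyte-like nuclei came from 4 clusters that the libraries filled unequally. Cluster 10 held 545 of the 572 BAT surgery nuclei and no BAT sham nucleus, so for the BAT pair a difference between libraries and a difference between clusters cannot be told apart. Cluster 21 held 24 BAT surgery, 1153 BAT sham, 451 BeAT surgery and 1479 BeAT sham nuclei, cluster 22 held 372 BAT sham and 1136 BeAT sham nuclei, and cluster 23 held 2587 BAT sham, 53 BeAT surgery and 2267 BeAT sham nuclei. Pnpla3 was among the 10 leading genes of clusters 10 and 21 although it was not used to build them. Within cluster 21, which both BeAT libraries filled, Pnpla3 was at 1647 CPM in BeAT surgery and 397 in BeAT sham, 4.15-fold higher, and Pnpla2 at 85.8 CPM in BeAT surgery and 238 in BeAT sham. Abhd5 in that cluster was at 165 CPM in BeAT surgery and 94.9 in BeAT sham, 1.74-fold higher and no longer called. Within cluster 21 the 24 BAT surgery nuclei gave ratios to BAT sham of 2.68 for Pnpla3, 0.746 for Pnpla2 and 1.22 for Abhd5, and of these only Pnpla3 was called.

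The BeAT surgery nuclei of cluster 23 had a combination of values that no other group of adipocyte-like nuclei had. Abhd5 reached 731 CPM there (658 to 811) and was found in 45 of 53 nuclei, against 85.9 CPM in the BeAT sham nuclei of the same cluster and 165 CPM in the BeAT surgery nuclei of cluster 21. These 53 nuclei, 10.3% of the BeAT surgery class, gave 363 of its 1024 Abhd5 UMIs. Over the whole BeAT surgery class the highest nucleus held 33, and its cluster is not given here. Their Pnpla3 level was 296 CPM (250.2 to 348), beside 250.1 CPM (241 to 260) in BeAT sham nuclei of that cluster and 1647 CPM (1607 to 1687) in BeAT surgery nuclei of cluster 21. Pnpla2 was at 179 CPM in them, between the 85.8 CPM of BeAT surgery nuclei in cluster 21 and the 229.7 CPM of BeAT sham nuclei in cluster 23. The highest Abhd5 and the highest Pnpla3 levels of BeAT surgery thus stood in different clusters, while cluster 10 of BAT surgery had 177 CPM of Abhd5 and 1321 CPM of Pnpla3 together.

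**Figure D3:**
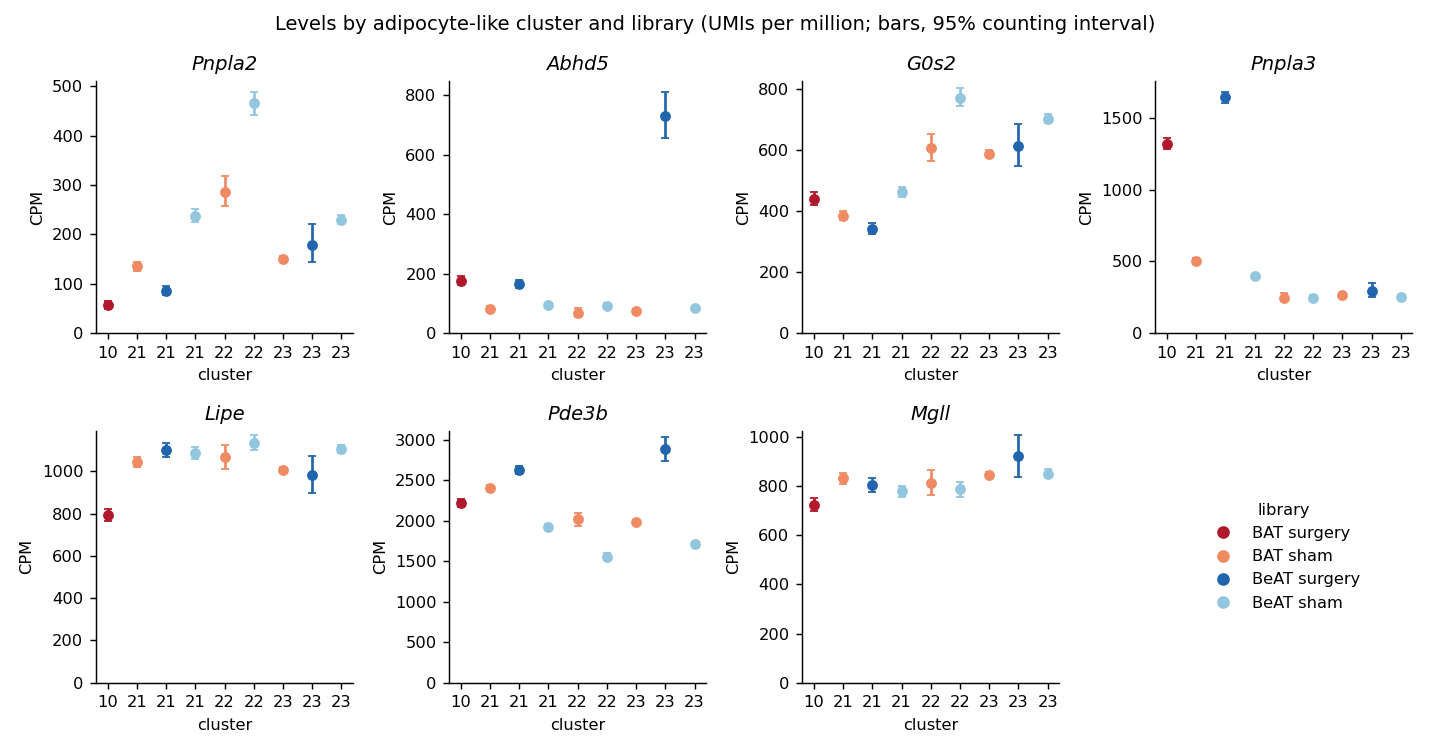
Level of each gene (CPM, y axis from 0) in each adipocyte-like cluster (x axis, by cluster number) and library with at least 50 nuclei, with 95% counting intervals. Pnpla3 is high in BAT surgery nuclei of cluster 10 and BeAT surgery nuclei of cluster 21, and Abhd5 reaches 731 CPM in the 53 BeAT surgery nuclei of cluster 23.

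The members also differed in where their UMIs lay. Pnpla3 was the gene most confined to adipocyte-like nuclei in these libraries, with 90.9% to 96.6% of its UMIs there in all 4. Lipe (75.7% to 88.9%) and G0s2 (73.4% to 86.6%) followed, without a gap between them. Pde3b had 90.1% and 90.2% of its UMIs there in BAT sham and BeAT sham, but 59.0% in BAT surgery and 66.8% in BeAT surgery. Mgll had 17.8% there in BAT surgery, against 62.1% to 76.9% in the other 3 libraries. The share depends on how many nuclei of each class a library held, so the levels within classes are given next.

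**Figure D4:**
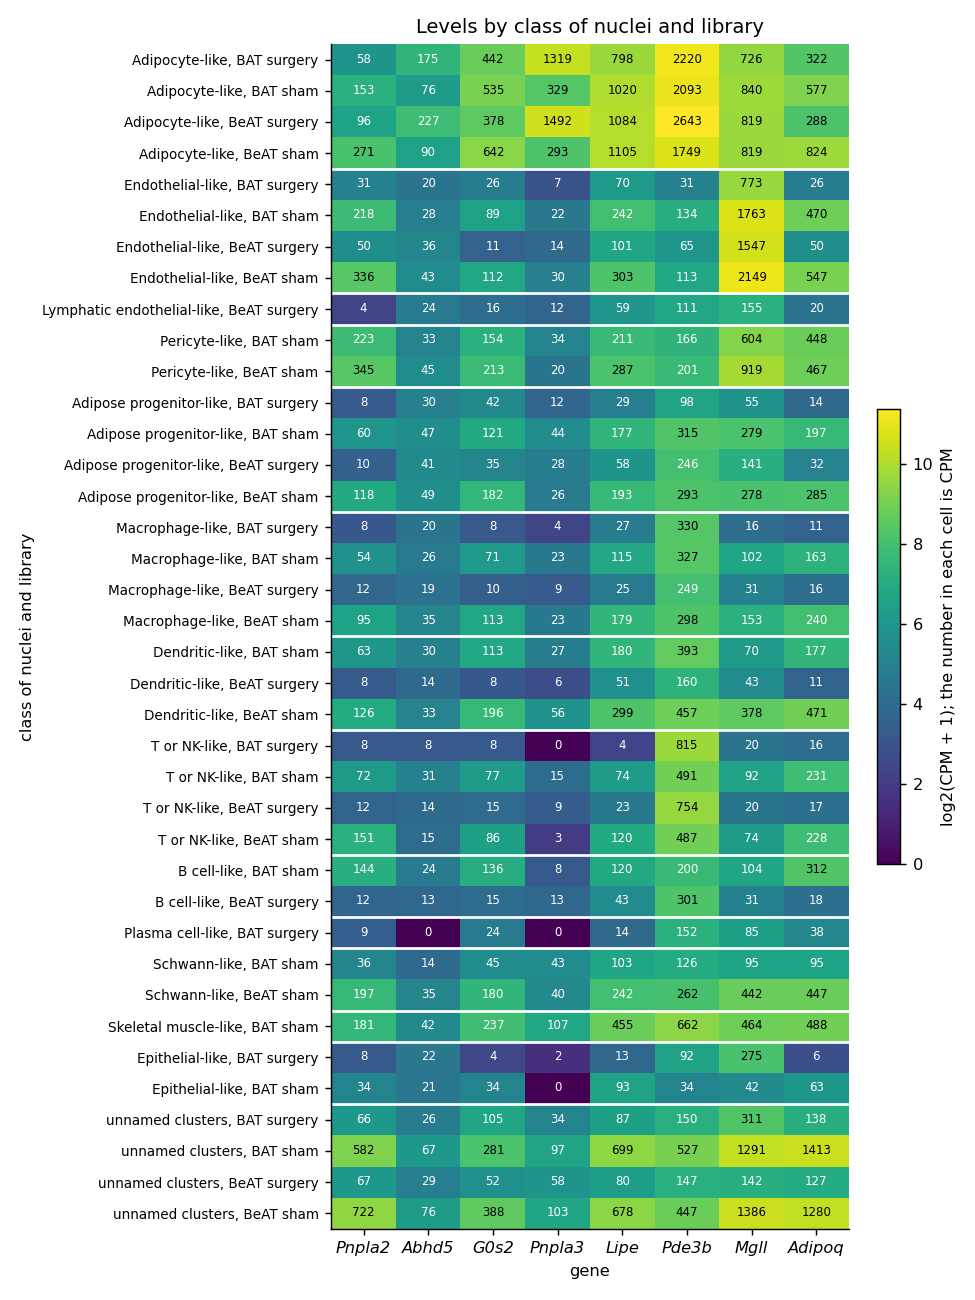
Levels of the 7 genes and of Adipoq (x axis) in each class of nuclei and library with at least 50 nuclei (y axis, 38 rows); colour is log2(CPM + 1) and the number in each cell is CPM. Beside the adipocyte-like rows, Mgll is high in endothelial-like and pericyte-like rows and Pde3b in T or NK-like rows.

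Adipoq UMIs outside adipocyte-like nuclei were more frequent in the sham libraries, where Adipoq stood at 470.0 CPM in endothelial-like nuclei of BAT sham and 547 in those of BeAT sham, against 26.3 CPM in BAT surgery and 50.4 in BeAT surgery. Each level outside the adipocyte-like class was therefore set beside the level that Adipoq in that class would give if both came from adipocytes in the same ratio. Pnpla3 stayed below that level in every class and library measured, at no more than 0.804 of it. Each of the other 6 genes exceeded it in at least 1 class and library, and Mgll did so by the most. No interval was computed for the factor of measured over given level, which rests on few Adipoq UMIs in some classes. There were 12 in endothelial-like nuclei of BAT surgery, 14 in those of BeAT surgery and 4 in T or NK-like nuclei of BAT surgery.

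Mgll was as high in endothelial-like nuclei as in adipocyte-like ones or higher. It stood at 773 CPM (695 to 858) in BAT surgery and 1763 (1705 to 1824) in BAT sham, and at 1547 CPM (1404 to 1700.0) in BeAT surgery and 2149 (2071 to 2230.1) in BeAT sham. Both surgery values were below their sham values, with intervals that did not overlap. These levels were 13.05, 2.57, 10.8 and 3.95 times the level given by Adipoq, in BAT surgery, BAT sham, BeAT surgery and BeAT sham. Pericyte-like nuclei had 604 CPM in BAT sham, and those of BeAT sham had 919, or 0.925 and 1.98 times that level, so the BAT sham value did not exceed it. In the epithelial-like nuclei of BAT surgery Mgll stood at 275 CPM (270 to 280.1), 20.6 times the given level, and their 10799 UMIs outnumber the 2636 of the adipocyte-like nuclei of that library.

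Pde3b stood far above the level given by Adipoq in T or NK-like nuclei of the surgery libraries. In T or NK-like nuclei it stood at 815 CPM (707 to 934) in BAT surgery and 491 (424 to 565) in BAT sham, and at 754 CPM (730.0 to 780) in BeAT surgery and 487 (414 to 569) in BeAT sham. The surgery values were 7.47 and 4.76 times the level given by Adipoq, while the sham values were 0.585 and 1.01 times it. The size of the first factor is uncertain, since Adipoq gave 4 UMIs there, or 15.8 CPM (4.31 to 40.5). In T or NK-like nuclei of BeAT surgery Adipoq gave 82 UMIs. Among the 7 genes this factor was not uniform in T or NK-like nuclei of the sham libraries. It ran from 0.117 for Pnpla3 to 1.18 for Pnpla2 in BAT sham, and from 0.0381 to 2.02 for the same genes in BeAT sham. The part of free RNA in the Pde3b sham values was not tested. B cell-like nuclei of BeAT surgery had 301 CPM, 1.86 times the given level, and macrophage-like nuclei had 330.3 CPM in BAT surgery and 327 in BAT sham, 4.42 and 0.551 times it. In endothelial-like nuclei Pde3b was far below the level given, at 0.169, 0.0786, 0.140 and 0.0975 of it in BAT surgery, BAT sham, BeAT surgery and BeAT sham.

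Pnpla2 was above the level given by Adipoq in most classes and libraries, the unnamed clusters among them. In endothelial-like nuclei it was at 30.7 CPM in BAT surgery and 218 in BAT sham, and at 50.4 CPM in BeAT surgery and 336 in BeAT sham. These levels were 6.46, 1.75, 3.0 and 1.87 times the level given by Adipoq, in BAT surgery, BAT sham, BeAT surgery and BeAT sham. In BAT surgery the factor was 7.74 in epithelial-like, 3.85 in macrophage-like and 3.32 in adipose progenitor-like nuclei, from levels of 8.25, 7.52 and 8.48 CPM. Both sham levels in endothelial-like nuclei exceeded those of adipocyte-like nuclei of the same libraries. In the unnamed clusters of the sham libraries, Adipoq reached 1413 CPM (BAT sham) and 1279.5 CPM (BeAT sham). Pnpla2 stood there at 582 CPM (BAT sham) and 722 CPM (BeAT sham), 1.56 and 1.72 times the level given by Adipoq. Those nuclei led with haemoglobin and endothelial genes and had a median of 1048 UMIs. The part of free RNA in the Pnpla2 levels outside adipocyte-like nuclei was not tested.

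**Figure D5:**
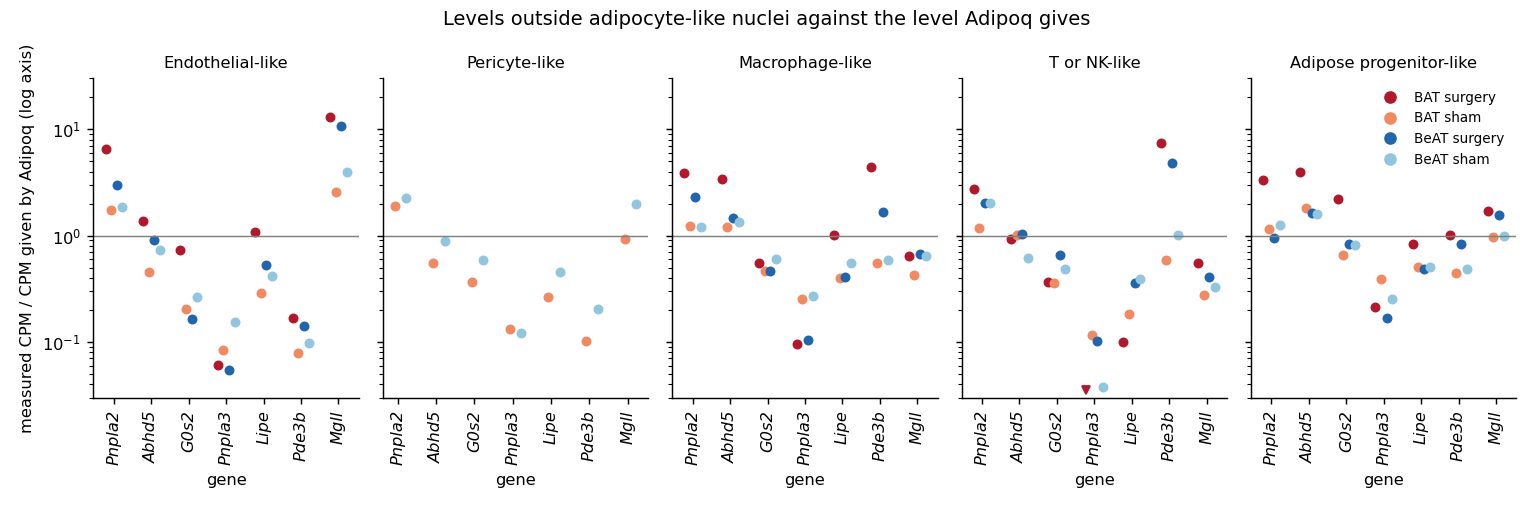
Measured CPM of each gene divided by the CPM that Adipoq gives (log y axis) in 5 classes outside the adipocyte-like one, with 1 point per library; the line marks a ratio of 1 and a triangle at the lower edge marks 0 UMIs. Mgll lies above 1 in all endothelial-like points and Pde3b in the T or NK-like points of the surgery libraries, at 7.47 in BAT surgery and 4.76 in BeAT surgery, while Pnpla3 lies below 1 in every point. The points have no interval, and the T or NK-like points of BAT surgery rest on 4 Adipoq UMIs.

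Over the 38 values of a class in a library, log2(CPM + 1) of each member was correlated with that of 16488 other genes; the values share libraries and depth and the coefficients are descriptions. Nearest to Pnpla2 were Dbi (Pearson r 0.971), Orm1 (0.964) and Fabp4 (0.961), and nearest to G0s2 were Cidec (0.968), Car3 (0.967) and Ces1d (0.962). Pnpla3 was nearest to Tshr (0.937), A530053G22Rik (0.908) and Trhde (0.905), Lipe to Dgat2 (0.959), Plin4 (0.941) and Npr3 (0.934), and Abhd5 to Mtch2 (0.881), Arl4a (0.863) and Ghr (0.841). Pde3b was nearest to 4933406I18Rik (0.943), Mfsd8 (0.861) and Sik2 (0.836), and Mgll to Cav1 (0.899), Timp4 (0.895) and Palmd (0.892). Among the members themselves r ran from 0.0721 for Pde3b with Mgll to 0.906 for G0s2 with Lipe.

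The other genes of the pathway were read from 8 lists in the same adipocyte-like nuclei. Of the receptors and G proteins that restrain lipolysis, 0 of 10 were called higher and 3 lower in both pairs, where 12.0% (BAT surgery) and 15.1% (BeAT surgery) of all genes were called lower, with median log2 ratios of -0.32 for BAT surgery and -0.13 for BeAT surgery, beside -0.07 and -0.08 for all genes. The 3 were the same in both. Npr3, the clearance receptor of natriuretic peptides, was at 404 CPM in BAT surgery and 2061 in BAT sham, 5.10-fold lower (4.84 to 5.38), and at 592 CPM in BeAT surgery and 1613 in BeAT sham, 2.73-fold lower (2.62 to 2.84). The hydroxycarboxylic acid receptors Hcar1 and Hcar2 were 3.39-fold and 3.18-fold lower in BAT surgery and 2.99-fold and 2.14-fold lower in BeAT surgery, and with the span trend taken off only Npr3 and, in BAT surgery, Hcar1 kept the call, while the fatty acid receptor gene Ffar2 was called higher in BeAT surgery.

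On the stimulating side, 0 of 9 genes of the adrenergic and cAMP arm were called higher and 3 lower in BAT surgery, and 1 higher and 2 lower in BeAT surgery, with medians of -0.15 and -0.10. Over all genes, 5.39% were called higher and 12.0% lower in BAT surgery, and 4.83% and 15.1% in BeAT surgery. Adrb3, the main beta-adrenergic receptor of mouse adipocytes, was at 626 CPM in BeAT surgery and 1389 in BeAT sham, 2.22-fold lower (2.14 to 2.31), and at 799.7 CPM in BAT surgery and 1359 in BAT sham, which was not called. Among those lower in BAT surgery were the receptor gene Adrb1, 2.92-fold (2.17 to 4.04), and the adenylyl cyclase gene Adcy3, 3.07-fold (2.26 to 4.27). Adcy5, another adenylyl cyclase, was 2.88-fold higher in BeAT surgery (2.59 to 3.20). In the protein kinase A list 1 of 8 was called, the anchor gene Akap12, 2.54-fold lower in BAT surgery and 2.35-fold lower in BeAT surgery, with medians of 0.01 and 0.15. Of the other phosphodiesterases, Pde4a (2.12-fold) and Pde5a (5.92-fold, 3.58 to 9.73) were higher in BAT surgery, 2 of 11, and 0 of 9 were called in BeAT surgery, with medians of 0.07 and 0.17.

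The counts of the next 3 lists stand beside 5.39% of all genes called higher and 12.0% lower in BAT surgery. In BeAT surgery these shares were 4.83% and 15.1%. Among lipid droplet coat genes, 2 of 8 were lower in BAT surgery and 0 of 8 were called in BeAT surgery, with medians of -0.69 and -0.45. The 2 were Cidea, a droplet gene of thermogenic fat (2.20 CPM in BAT surgery against 29.8 in BAT sham, 13.5-fold lower, 6.83 to 31.5), and Hilpda, which is known to inhibit the same lipase as G0s2 (2.77-fold lower, from 6 UMIs in BAT surgery). Plin1, the coat protein that holds Abhd5, was at 945 CPM in BAT surgery and 1624 in BAT sham, and at 1224 CPM in BeAT surgery and 1612 in BeAT sham, not called. Of other neutral lipid hydrolases, 1 of 11 was higher and 2 lower in BAT surgery, and 0 and 1 of 11 in BeAT surgery, with medians of -0.20 and -0.07. The carboxylesterase genes Ces1f (3.57-fold) and Ces1d (2.16-fold) were lower in BAT surgery and Ces1f (2.01-fold) in BeAT surgery, and Ddhd1, a phospholipase gene, was 2.58-fold higher in BAT surgery. In fatty acid and glycerol handling 0 of 10 were higher and 2 lower in both pairs, the fatty acid binding protein genes Fabp4 (3.94-fold and 2.51-fold lower) and Fabp5 (4.79-fold and 5.09-fold lower, BAT pair before BeAT pair), with medians of -0.05 and 0.15.

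Transcription factors known to act on lipase genes were the list with the most genes called higher, 4 of 8 in each pair, where 5.39% (BAT surgery) and 4.83% (BeAT surgery) of all genes were called higher. Their median log2 ratios were 0.55 for BAT surgery and 1.14 for BeAT surgery, beside -0.07 and -0.08 for all genes. The 4 were the same genes. The lists were chosen with earlier results of these data known, so the count describes these genes and is not a test of the list. Arntl, a clock factor that binds E-boxes, was at 58.4 CPM in BAT surgery and 4.31 in BAT sham, 13.5-fold higher (10.7 to 17.2), and at 42.7 CPM in BeAT surgery and 2.94 in BeAT sham, 14.5-fold higher (10.8 to 19.7). Its partner Clock was 3.63-fold higher in BAT surgery and 2.98-fold in BeAT surgery. Foxo1, which is known to raise Pnpla2 in mouse adipocytes when insulin is low, was 2.16-fold higher in BAT surgery and 2.73-fold in BeAT surgery, and Irf4 was 2.07-fold and 4.63-fold higher. Egr1, an immediate early gene known to repress Pnpla2, was at 14.3 CPM in BAT surgery and 54.8 in BAT sham, 3.82-fold lower (2.90 to 5.15), and was not called in BeAT surgery. The labels do not state the hour of day at which surgery and sham tissues were taken. Between BAT sham and BeAT sham the 8 lists, of 8 to 13 tested genes each, held 0 genes called higher and 3 lower, Cidea, Hcar2 and Egr1. Of all genes in that comparison, 1.87% were called higher and 1.06% lower.

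The span trend bore on some of these list counts. With it taken off, Hilpda, Pde4a and Foxo1 lost their call in BAT surgery, as did Ces1f and Fabp4 in BeAT surgery. Pde1a and Ppara were then called lower in BAT surgery, and Egr1 higher in BeAT surgery. On that scale Egr1 had opposite calls under the BAT and BeAT labels, while as measured it was called only in BAT surgery. The calls of Arntl, Clock, Irf4, Npr3, Fabp5 and Akap12 were kept in both pairs.

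Several members lie over other annotated genes, which without a stated strand setting of the counting cannot be told apart in full. Abhd5 overlaps A730085K08Rik, G0s2 overlaps Lamb3, Lipe overlaps 4732471J01Rik, Pnpla3 overlaps Mir6392, Gm49513 and Gm20369, and Mgll overlaps 5 predicted genes. Pnpla2 and Pde3b overlap none in GENCODE M21.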

How the data were processed

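Gene-by-barcode tables of 4 libraries, 1 per group, were analysed as the authors deposited them: raw UMI counts, per the file headers. The genome build mm10 and Seurat 4.4.0 and 4 are named, per the submitters' processing notes. The aligner, counter and strand setting were not given in the sources used here. Barcodes needed 500 UMIs, 300 detected genes and a mitochondrial share below 10%. Doublets were removed with Scrublet (expected 6%); its automatic threshold was replaced by the top 6% of scores where it marked under 0.5% or over 20% of barcodes, which was so in both sham libraries. This left 9159 nuclei in BAT surgery, 9791 in BAT sham, 5328 in BeAT surgery and 9760 in BeAT sham, with median depths of 5173, 3970, 2654 and 3049 UMIs. Nuclei were clustered with scanpy 1.11.5 (python 3.11.15, numpy 2.4.6, scipy 1.17.1, igraph 0.11.9) from 2000 variable genes, 30 principal components and 15 neighbours at Leiden resolution 1, without the 7 genes. Clusters were named from 18 marker lists, and 3 of 32 stayed unnamed, each because it also held markers of another class.

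UMIs were summed per library and class and given as UMIs per 1000000 (CPM) with exact Poisson intervals. Ratios of CPM have exact conditional binomial intervals, and shares have exact Clopper-Pearson intervals. The call rule and its interval were tried on simulated counts with set fold changes and counting error only. Those counts held no spread between animals, span trend or difference in free RNA or clusters, so they do not bear on these. The call rule (at least 50 UMIs over the pair, 2-fold, interval excluding 1) is one of size, applied to all genes. The trend with genomic span was taken off as the median of 20 bins of span from GENCODE M21. Pathway genes needed 50 UMIs over the pair to be counted and 20 (with a UMI in both libraries) to enter a list's median; at most 4 called genes of a list are named per comparison, and the 3 genes nearest to each member are named by Pearson correlation. The members, the lists and the limits for naming clusters were chosen with earlier results of these data known, and TGACGTCA was searched after the values were seen. Protein sequences were not used here, and 1 called gene of the adrenergic and cAMP list is not reported here by name.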

Additional observations from a re-analysis of the deposited data

How the results depend on the processing

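Pnpla3 was called higher in both surgery comparisons under all 14 alternatives that kept the 2-fold limit, with ratios of 2.68 to 4.51 for BAT surgery over BAT sham and 4.15 to 5.97 for BeAT surgery over BeAT sham. Abhd5 kept its direction under all 15 alternatives and its call under 11 and 13 of the 14 (ratios 1.19 to 2.42 and 1.74 to 3.17). Pnpla2 kept its direction under all 15 and its call under 11 and 12 of the 14 (ratios 0.215 to 0.929 and 0.349 to 0.628). In the BAT comparison the number of called members was 1 in place of 3 when only the shared cluster 21 was used. It was also 1 when cluster 10, made mostly of BAT surgery nuclei, was left out, an alternative chosen after seeing the data. With that cluster left out the ratios were 0.929 for Pnpla2, 1.19 for Abhd5 and 3.73 for Pnpla3. Cluster 10 held 628 of the 635 Abhd5 UMIs and 200 of the 211 Pnpla2 UMIs of BAT surgery. The directions of Abhd5 and Pnpla2 in the BAT pair thus rest on few UMIs under these alternatives. At a limit of 1.5-fold the called members were 5 in BeAT surgery and 1 between the sham libraries, and the counts over all genes at that limit are given below. With the span trend taken off the called members were 2 in each surgery comparison, both higher. On that scale 743 of 13085 genes were called higher in BAT surgery and 740 of 12561 in BeAT surgery. The difference in Mgll UMIs per Lipe UMI changed side from 1.10 in the BAT comparison to 0.903 with the span trend taken off and 0.829 in the shared cluster, and from 1.11 to 0.996 between the sham libraries with the trend taken off; these alternatives were added after seeing the data. The causes were not tested.

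Called genes numbered 2278, 2511 and 409 in the BAT surgery, BeAT surgery and sham comparisons, and 1215, 1441 and 202 with nuclei thinned to 1000 UMIs. They numbered 4128, 4636 and 1584 at 1.5-fold, 1551 in BeAT surgery with the span trend taken off (740 higher and 811 lower, against 607 higher and 1904 lower as measured), and 875 between the sham libraries with no minimum of UMIs. In BAT surgery they numbered 691 in the shared cluster and 796 without the cluster mostly of that library. No paired analysis was possible because each comparison sets 1 library against 1 other; a fit of surgery over both labels, with label as a block of 2 pairs, was not run. No replicate could be left out. The summed UMIs of adipocyte-like nuclei, 3631324 in BAT surgery, 25525199 in BAT sham, 4517537 in BeAT surgery and 20727035 in BeAT sham, set the width of the intervals.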
